A study of Arabidopsis thaliana with 4 samples.

Results

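The cytosolic ribosome of a plant cell is built in the nucleolus from ribosomal RNA and many kinds of protein, each encoded by a small family of nuclear paralogues. Large subunit proteins (RPL, with the acidic stalk proteins RPP) surround the peptidyl transferase centre and the exit tunnel, and small subunit proteins (RPS) surround the decoding site. Dividing and growing root cells carry much of this mRNA, and its level usually moves as a block with the demand for protein synthesis. These genes were read from a list of 60 cytosolic ribosomal protein loci, 45 of the large and 15 of the small subunit, grouped by their function. The list was drawn up with earlier results of these data known. Cytosolic ribosomal protein genes outside the list were not read. Of these, 42 have a probe set that names a single gene, 34 of the large and 8 of the small subunit, out of 13286 genes with such a probe set on the array. The other 18 give no value of their own: 7 lie only on probe sets shared with a paralogue, and 11 are not listed in the annotation used. None of the loci lies in the chromosome 1 stretch from AT1G20910 to AT1G27530.

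Whole roots were taken from nlp7-1 plants (2 samples) and from wild-type plants (2 samples), both in the Col-0 ecotype. The nlp7-1 mutant is affected in NLP7, a transcription factor of nitrate signalling. All plants were 5 dai, untreated, and grown on MS agar at 22 °C with 16 h of light a day; about 60 roots were pooled for each biological replicate. RNA was hybridised to 4 Affymetrix ATH1 arrays, in which a probe set is a group of short probes for one transcript or for several alike. The comparison asks whether transcript levels differ between mutant and wild-type roots under standard growth.

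Values are MAS5 signals, a linear brightness, which had been scaled so that the trimmed mean was the same on every array (250.02). Median signals were 99.5 and 99.3 in nlp7-1 roots and 101 and 97.5 in wild-type roots. NLP7 itself is not analysed here, since none of the named probe sets was its own, so the genotype labels have no check from the mutated gene. Markers of cell types had few named probe sets. In root hairs 1 of 6 had one (EXPA7, an expansin gene of root hair cells, with signals of 607 and 515 in nlp7-1 roots and 571 and 367 in wild-type roots), in the root cap 2 of 5 (summed signal 201 and 211 in nlp7-1 roots, 179 and 114 in wild-type roots), in endodermis and stele 0 of 5 each. Green shoot tissue had 3 of 6, whose summed signal was 664 and 793 in nlp7-1 roots and 813 and 1009 in wild-type roots. Precision is limited throughout by there being only 2 arrays of each genotype. In whole roots, a changed share of cells rich in these mRNAs and a changed amount of RNA per cell cannot be told apart.

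Nearly every measured ribosomal protein gene of the list had a slightly higher signal in nlp7-1 roots than in wild-type roots. The log2 change was above 0 in 40 of 42 genes, where 6830 of the 13648 probe sets kept in the fit (50%) were above 0. In 37 of the 42 genes (88.1%) both nlp7-1 samples lay above both wild-type samples, against 23.2% of all kept probe sets. In 1 gene both nlp7-1 samples lay below both wild-type samples, against 20.9% of all kept probe sets, and in 4 genes the genotypes overlapped. The median log2 change over the 42 genes was 0.18, or 1.13-fold, with quartiles of 0.12 and 0.22, against a median of 0.00016 over all kept probe sets.

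Each difference was small, and 0 of the 42 genes passed the limma test at a Benjamini-Hochberg adjusted p under 0.05, where 2.27% of all kept probe sets were called, 1.64% higher and 0.630% lower in nlp7-1. Adjusted p-values of the 42 genes ran from 0.165 to 0.918 in limma. At an unadjusted p under 0.05, 11 of the 42 genes (26.2%) were higher in nlp7-1 and 0 were lower, against 7.50% and 5.71% of all kept probe sets. An unmoderated test gave 0 calls after adjustment, but it gave 0 over all 13648 kept probe sets too, so that count says nothing about these genes. Before adjustment it gave 9 of the 42, against 1371 of the 13648. The SE of a log2 change was 0.07 to 0.13 for these genes, so the median change was about 2 SE of a single gene.

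**Figure D1:**
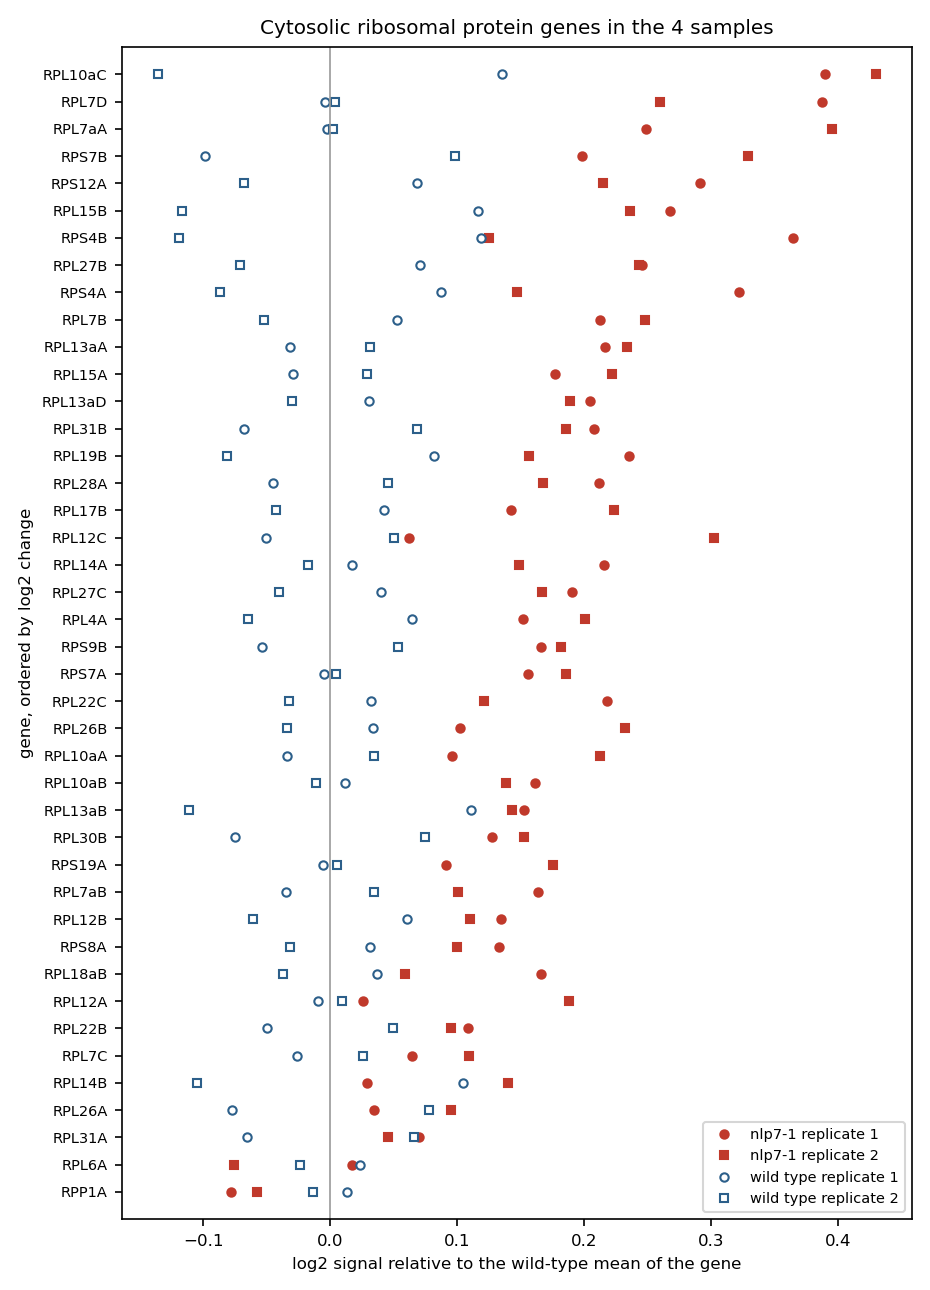
Signal of each of the 42 ribosomal protein genes in each sample, as log2 relative to the gene's wild-type mean, ordered from the highest to the lowest log2 change; filled symbols are nlp7-1 and open symbols wild type. In 37 genes both nlp7-1 points lie right of both wild-type points, and only RPL6A and RPP1A have a log2 change below 0.

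The largest difference was in RPL10aC (AT5G22440), one of the paralogues of the protein of the L1 stalk, through which spent tRNA leaves the ribosome. Its signal was 2674 and 2749.6 in nlp7-1 roots, against 2242 and 1858 in wild-type roots. Both mutant samples were above both wild-type samples, and the wild-type samples lay farther apart than the mutant ones. The log2 change was 0.41 ± 0.12 (SE; limma adjusted p = 0.187). Dropping wild type replicate 2 gave 0.27, and dropping wild type replicate 1 gave 0.54.

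Next came RPL7D (AT3G13580) and RPL7aA (AT2G47610), which encode members of separate large subunit protein families in spite of the alike names. RPL7D had signals of 1697 and 1553 in nlp7-1 roots, against 1293 and 1301 in wild-type roots. For RPL7aA the signals were 4799 and 5312 in nlp7-1 roots, against 4033 and 4047 in wild-type roots. In both genes the wild-type pair was nearly identical and the mutant pair stood clear of it. Their log2 changes were 0.32 ± 0.10 and 0.32 ± 0.09 (SE; limma adjusted p = 0.232 and 0.165).

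RPS7B (AT3G02560), of the small subunit, had 3699 and 4050.4 in nlp7-1 roots, against 3012 and 3453 in wild-type roots. RPS12A (AT1G15930), whose protein sits in the beak of the small subunit, had 5830.3 and 5531 in nlp7-1 roots, against 4996 and 4546 in wild-type roots. RPL15B (AT4G17390), of a large subunit core protein, had 5060.0 and 4949 in nlp7-1 roots, against 4556 and 3876 in wild-type roots. The genotypes did not overlap in these 3 genes, although in RPS7B and RPL15B the wild-type samples lay farther from each other than the nearest samples of unlike genotype. Log2 changes were 0.26 ± 0.10, 0.25 ± 0.08 and 0.25 ± 0.10 (SE; limma adjusted p = 0.355, 0.269 and 0.358). Without wild type replicate 2, RPL15B had 0.14, and without wild type replicate 1, RPS7B had 0.16.

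At the other end, RPP1A (AT1G01100) had the lowest log2 change of the 42 genes. It encodes an acidic P1 protein of the lateral stalk, the arm that recruits elongation factors. Its signal was 6035 and 6123 in nlp7-1 roots, against 6432 and 6312 in wild-type roots, so that both mutant samples lay below both wild-type samples. The log2 change was -0.07 ± 0.07 (SE; limma adjusted p = 0.747), and leaving out any 1 sample gave -0.08 to -0.05.

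RPL6A (AT1G18540), of the large subunit, had 4270.4 and 4003 in nlp7-1 roots, against 4288 and 4152 in wild-type roots, and the genotypes overlapped. RPL31A (AT2G19740), of a protein at the mouth of the exit tunnel, had 1003 and 986 in nlp7-1 roots, against 912 and 999.6 in wild-type roots. These 2 genes showed next to no difference, at -0.03 ± 0.08 and 0.06 ± 0.11 on the log2 scale (SE). RPL26A (AT3G49910), which also lies near the tunnel exit, had 7479.7 and 7800.1 in nlp7-1 roots, against 6921 and 7706 in wild-type roots. RPL14B (AT4G27090) had 6565 and 7091 in nlp7-1 roots, against 6918 and 5985 in wild-type roots. The genotypes overlapped in both, with log2 changes of 0.06 ± 0.08 and 0.08 ± 0.10 (SE). RPL7C (AT2G44120) had 4186 and 4319 in nlp7-1 roots, against 3933 and 4076 in wild-type roots, a gap narrower than that between the wild-type samples (log2 change 0.09 ± 0.08, SE).

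The difference was of similar size in both subunits. All 8 small subunit genes had both nlp7-1 samples above both wild-type samples, with a median log2 change of 0.20 and a range of 0.12 to 0.26. Among the 34 large subunit genes 29 did so, with a median of 0.17 and a range of -0.07 to 0.41. Over all kept probe sets the share was 23.2%. Of the shared probe sets, not counted here, that of RPS20 also lay above without overlap. Those of RPS3, RPS16, RPL32 and the pair RPL6B and RPL6C overlapped between genotypes. To set the subunits side by side in each array, every gene's log2 signal was taken relative to its mean over the 4 samples, and the median over genes was taken. The large subunit stood at 0.08 and 0.08 in nlp7-1 roots and at -0.07 and -0.10 in wild-type roots. For the small subunit the values were 0.08 and 0.09 in nlp7-1 roots and -0.07 and -0.09 in wild-type roots. The large minus the small subunit value differed between the genotypes by 0.0075, with a pooled SD of 0.0097 between replicates. With 2 samples against 2, an exact permutation test cannot give a p below 0.333.

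**Figure D2:**
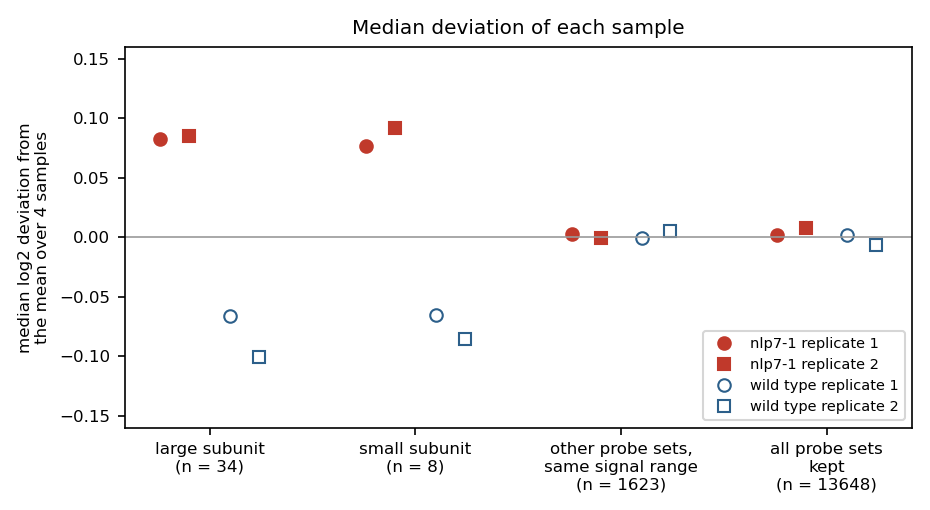
Median log2 deviation from the mean over the 4 samples, for each sample (nlp7-1 filled, wild type open), over large subunit genes, small subunit genes, other kept probe sets in the same range of signal, and all kept probe sets. Both subunits sit at 0.08 to 0.09 in nlp7-1 samples and at -0.07 to -0.10 in wild-type samples, while the other probe sets lie near 0 in all samples.

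The difference was present in each pairing of a mutant with a wild-type array. The median log2 difference over the 42 genes was 0.16 and 0.17 for nlp7-1 replicate 1 against wild type replicates 1 and 2, and 0.15 and 0.19 for nlp7-1 replicate 2 against them. In these pairings 39 or 40 of the 42 genes were above 0. Between the 2 mutant samples the median was 0.0057, with 22 genes above 0 and 20 below. Between the 2 wild-type samples it was 0.03, with 23 genes above 0 and 19 below. Replicates thus split the genes about evenly, while pairs of unlike genotype put nearly all on one side. Other kept probe sets in the same range of signal had medians of -0.0032, 0.0017, -0.0034 and -0.02 in the pairings of unlike genotype. Their share above 0 was not computed for each pairing. The pairings reuse the same arrays, 2 of each genotype, and the genes can move together. Neither the pairings nor the genes are therefore independent readings of the genotype.

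Ribosomal protein mRNAs are among the brightest on the array, so their values were set beside other bright probe sets. The 42 genes had geometric mean signals of 974.4 to 7548.6. The 1623 other kept probe sets in that range had median deviations of 0.0024 and -0.0008 in nlp7-1 roots, and of -0.0005 and 0.0055 in wild-type roots, on the same log2 scale. Of the ribosomal genes 1 (RPL31A) lay between signals of 250 and 1000, with a log2 change of 0.06, 6 lay between signals of 1000 and 2000, with a median log2 change of 0.20, 11 between 2000 and 4000, with 0.18, and 24 between 4000 and 8000, with 0.14. Other probe sets in these 4 bands had medians of -0.0026, -0.02, -0.02 and 0.01. Among them 22.9%, 25.9%, 25.6% and 30.3% had both nlp7-1 samples above both wild-type samples, so this share was somewhat larger at high signal. After cyclic loess normalization, which takes out shifts that follow signal and was added once the values were known, the median over the 42 genes was 0.17, again with 40 above 0 and 37 without overlap.

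**Figure D3:**
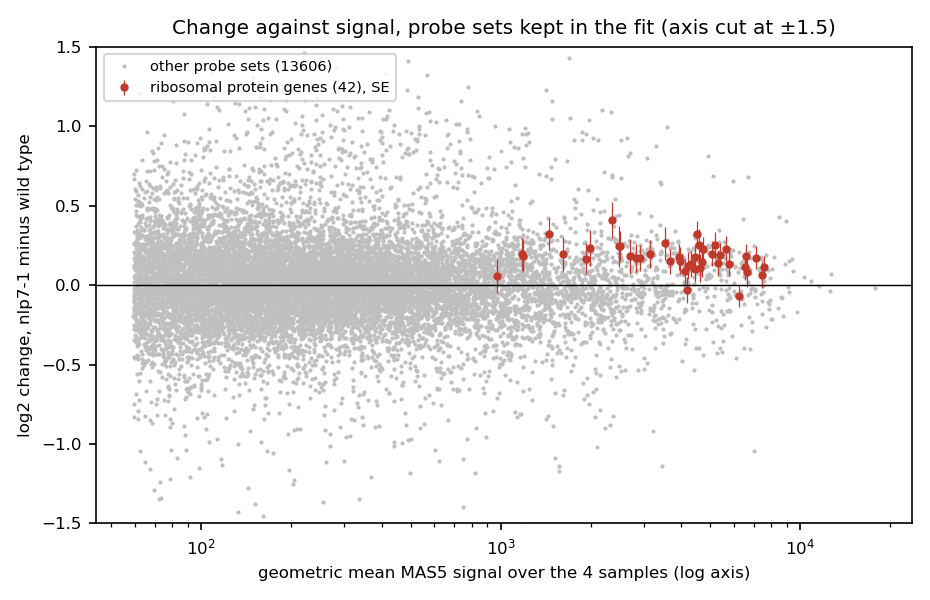
Log2 change (nlp7-1 minus wild type) against geometric mean signal for the 42 ribosomal protein genes (red, with the SE of the fit) and the 13606 other kept probe sets (grey). The red points lie at the bright end and 40 of the 42 are above 0, within the spread of single grey points; 32 grey points fall beyond the axis at 1.5.

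The genes lie on all 5 chromosomes, and the difference was seen on each. The median log2 change was 0.15 for 7 genes on chromosome 1, 0.17 for 10 on chromosome 2, 0.16 for 12 on chromosome 3, 0.20 for 5 on chromosome 4 and 0.18 for 8 on chromosome 5. Both genes below 0, RPL6A and RPP1A, are on chromosome 1, where the other 5 were above 0 with no overlap.

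Paralogues of one protein could be compared in 13 families with 30 measured genes. In all 13 every paralogue had a log2 change above 0, and in 10 every paralogue had both nlp7-1 samples above both wild-type samples. The exceptions were RPL31, RPL26 and RPL14, each with 1 of 2 paralogues overlapping. Within a family the log2 changes spanned 0.0101 to 0.26, with a median span of 0.09, which is close to the SE of a single gene. Because probe sets differ in how well they bind, the signal of one paralogue is not set against that of another here, and only the change of their ratio between genotypes is read. Single-gene probe sets can still take up some RNA of a close paralogue, which was not tested.

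The widest span was in the RPL10a family. RPL10aA (AT1G08360) had 4009 and 4346 in nlp7-1 roots, against 3664 and 3842 in wild-type roots. RPL10aB (AT2G27530), also known as PIGGYBACK1 from its effect on leaf form, had 3892 and 3829.5 in nlp7-1 roots, against 3507 and 3452 in wild-type roots. Both had log2 changes of 0.15 (SE 0.09 and 0.08), below the 0.41 of RPL10aC. The log2 ratio of RPL10aC to RPL10aB was -0.54 and -0.48 in nlp7-1 roots, against -0.65 and -0.89 in wild-type roots. That ratio was higher by 0.26 in nlp7-1, with no overlap and a pooled SD of 0.13 between replicates (exact permutation p = 0.333, the smallest that 2 against 2 allows).

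In the RPL7 family, RPL7B (AT2G01250) had 6064 and 6216 in nlp7-1 roots, against 5427 and 5047 in wild-type roots, a log2 change of 0.23 ± 0.08 (SE), between those of RPL7D and RPL7C. The log2 ratio of RPL7D to RPL7C was -1.30 and -1.48 in nlp7-1 roots, against -1.60 and -1.65 in wild-type roots, higher by 0.24 in nlp7-1 (exact permutation p = 0.333). In the RPL7a family, RPL7aB (AT3G62870) had 6168 and 5904 in nlp7-1 roots, against 5375 and 5641 in wild-type roots, with a log2 change of 0.13 ± 0.08 (SE). The log2 ratio of RPL7aA to RPL7aB was -0.36 and -0.15 in nlp7-1 roots, against -0.41 and -0.48 in wild-type roots, a difference of 0.19. RPL31B and RPL31A kept a log2 ratio of 1.76 in both nlp7-1 samples, against 1.62 in both wild-type samples, a difference of 0.14 with a pooled SD of 0.0027. At the other extreme RPS4A (AT2G17360) and RPS4B (AT5G07090), of the small subunit, had log2 changes of 0.23 ± 0.11 and 0.24 ± 0.13 (SE), and their ratio differed by 0.0101 between genotypes. Leaving out 1 sample gave values as low as 0.15 for RPS4A and 0.12 for RPS4B. Of the 21 paralogue pairs, 7 had ratios that did not overlap between genotypes, and 4 differed by over 2 pooled SD. Each ratio has the paralogue of larger log2 change on top, so every difference is above 0 by construction. Signals of single probe sets, an unlike measure, lay above without overlap in 23.2% and below in 20.9% of all kept probe sets. No share was computed for ratios of other probe sets, so the 2 counts are not read as a result about paralogues. Since the exact test cannot go below 0.333 here, it shows no pair to differ and none to be alike.

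**Figure D4:**
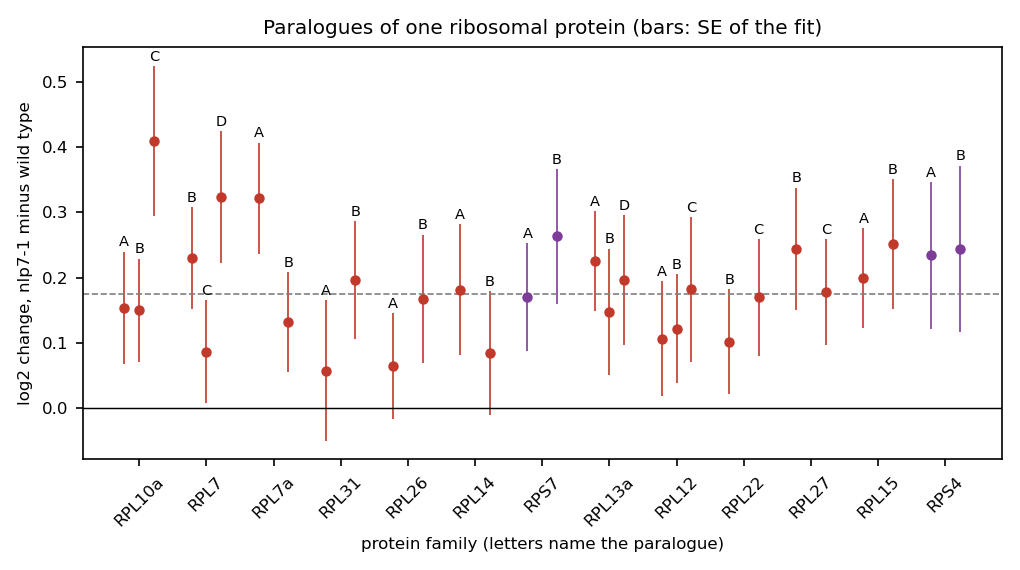
Log2 change (nlp7-1 minus wild type) of each paralogue in the 13 families with 2 or 3 measured genes, ordered by the span within the family; bars are the SE of the fit, red is the large and purple the small subunit, and the dashed line is the median of all 42 genes. All 30 points lie above 0, and the span is widest in RPL10a, at 0.26.

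Log2 changes of the other large subunit families lay in the same narrow band. RPL13aA (AT3G07110), RPL13aB (AT3G24830) and RPL13aD (AT5G48760) had log2 changes of 0.23 ± 0.08, 0.15 ± 0.10 and 0.20 ± 0.10 (SE). RPL12A (AT2G37190), RPL12B (AT3G53430) and RPL12C (AT5G60670), of the protein at the base of the lateral stalk, had 0.11 ± 0.09, 0.12 ± 0.08 and 0.18 ± 0.11. RPL15A (AT4G16720) had 0.20 ± 0.08, RPL14A (AT2G20450) 0.18 ± 0.10 and RPL31B (AT4G26230) 0.20 ± 0.09. The tunnel-exit gene RPL26B (AT5G67510) had 0.17 ± 0.10. RPL22B (AT3G05560) and RPL22C (AT5G27770) had 0.10 ± 0.08 and 0.17 ± 0.09, and RPL27B (AT3G22230) and RPL27C (AT4G15000) had 0.24 ± 0.09 and 0.18 ± 0.08. In all of these both nlp7-1 samples lay above both wild-type samples. Single values were sensitive to 1 array: leaving one out brought RPL12A to as low as 0.03, RPL12B to 0.06, RPL12C to 0.06, RPL13aB to 0.04 and RPL22B to 0.05. Over all 42 genes, 20 moved by over 1.5 times in this way.

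Families with a single measured gene gave values of the same size, apart from RPL6A and RPP1A. RPL4A (AT3G09630) and RPL17B (AT1G67430), whose proteins reach into the wall of the exit tunnel, had log2 changes of 0.18 ± 0.08 each (SE). Signals of RPL4A were 4641 and 4800.4 in nlp7-1 roots, against 4369 and 3994 in wild-type roots. Those of RPL17B were 6829 and 7223 in nlp7-1 roots, against 6371 and 6007 in wild-type roots. RPL18aB (AT2G34480) had 0.11 ± 0.08, RPL19B (AT3G16780), of a protein that bridges to the small subunit, 0.20 ± 0.11, RPL28A (AT2G19730) 0.19 ± 0.08 and RPL30B (AT1G77940) 0.14 ± 0.08.

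In the small subunit, RPS7A (AT1G48830) had a log2 change of 0.17 ± 0.08 (SE). RPS8A (AT5G20290) had 0.12 ± 0.07, with signals of 7951 and 7769.9 in nlp7-1 roots, against 7408 and 7094 in wild-type roots. RPS9B (AT5G15200), whose protein lies where mRNA enters the ribosome, had 0.17 ± 0.07, with 7526 and 7609 in nlp7-1 roots, against 6461 and 6962 in wild-type roots. RPS19A (AT3G02080), whose human counterpart is mutated in Diamond-Blackfan anaemia, had 0.13 ± 0.08, with 4394 and 4659 in nlp7-1 roots, against 4110.0 and 4141 in wild-type roots. None of these differences passed on its own.

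Other nuclear genes of translation were read from lists of 73 loci, of which 14 were measured. In limma 0 of the 14 passed in either direction, where 2.27% of all kept probe sets were called. An unadjusted p under 0.05 was found in 2 of the 14, AT1G72730 and AT3G05060, both higher in nlp7-1, against 7.50% of all kept probe sets in that direction. A log2 change above 0 was found in 10 of the 14, against 6830 of the 13648 kept probe sets. In 7 of the 14 both nlp7-1 samples lay above both wild-type samples, against 23.2% of all kept probe sets. These include both measured ribosome biogenesis genes and 3 of the 9 initiation factor genes. In the initiation factor genes AT1G54290 and AT5G35680 both nlp7-1 samples lay below, as in 20.9% of all kept probe sets. AT3G05060, for a NOP58-like protein of small nucleolar particles, had 1259 and 1246 in nlp7-1 roots, against 1101 and 995 in wild-type roots (log2 change 0.26 ± 0.11, SE). AT2G40430 (SMO4), also of ribosome assembly, had 477 and 508 in nlp7-1 roots, against 417 and 409 in wild-type roots (0.25 ± 0.11). Elongation factor genes AT5G19510 and AT5G12110, both of the eEF1B complex, had 0.12 ± 0.08 and 0.20 ± 0.19, and AT1G73230, of the complex that meets nascent chains, had 0.08 ± 0.09.

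Initiation factor genes were mixed, with 5 of 9 above 0 and a median log2 change of 0.04. The 3 with the smallest p were AT1G72730, for an eIF4A-type helicase, at 0.57 ± 0.19, AT4G20980, for an eIF3 subunit, at 0.31 ± 0.15, and AT5G35680, for eIF1A, at -0.16 ± 0.09 (SE; limma adjusted p = 0.269, 0.456 and 0.540). The ribosomal proteins encoded in the plastid genome, which serve a separate ribosome, had 13 of 15 probe sets kept. Of these, 3 had a log2 change above 0, against 50% of all kept probe sets, and the median was -0.06. In rps4, rpl33, rps18, rpl20 and rpl22 both nlp7-1 samples lay below both wild-type samples, as in 20.9% of all kept probe sets. In 2 of the 13 both lay above, against 23.2%. The limma test passed 0 of the 13. An unadjusted p under 0.05 was found in 2, rps4 and rpl33, both lower in nlp7-1, against 5.71% of all kept probe sets in that direction. The lowest p-values were those of rps4, rpl33 and rps18, at -0.45 ± 0.12, -0.75 ± 0.24 and -0.42 ± 0.19 (SE). The difference between cytosolic and plastid ribosomal genes was not tested.

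Markers of dividing cells, in which ribosomal protein mRNA is abundant, had 2 of 14 probe sets named. In both, the nlp7-1 samples lay above the wild-type samples, as in 23.2% of all kept probe sets. In AUR1 the nearest samples were almost equal, at 307 in nlp7-1 and 306 in wild type. PRL (AT4G02060), the replication licensing factor MCM7, had 256 and 265 in nlp7-1 roots, against 199 and 178 in wild-type roots (log2 change 0.47 ± 0.13, SE; limma adjusted p = 0.171). AUR1 (AT4G32830), a mitotic kinase, had 319 and 307 in nlp7-1 roots, against 282 and 306 in wild-type roots (0.09 ± 0.12). Summed signals of the list were 574 and 573 in nlp7-1 roots, against 482 and 484 in wild-type roots, and the part of dividing cells or of the root cap in the ribosomal protein values was not tested. The control probe set for 25S ribosomal RNA, the RNA core of the large subunit, had 6180 and 6248 in nlp7-1 roots, against 5005 and 5318 in wild-type roots. Its part in the result was not tested, and the other control probe sets were not read.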

How the data were processed

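Steady-state transcript levels were measured on 4 arrays, 2 of nlp7-1 and 2 of wild-type roots. The authors deposited linear intensities, 1 per probe set and array, computed with MAS5 per the submitters' processing notes. Its version and the genome build are not given in the sources used here. From 22810 probe sets, 64 controls were set aside. Probe sets were assigned through GEO's platform annotation and RefSeq genes (assembly TAIR10.1), used for identifiers and chromosome only. That table lists these genes by locus (PGY1 excepted), so family and paralogue names are those in general use for Arabidopsis. No member had more than 1 single-gene probe set.

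Values were taken to log2 without pseudocount. Probe sets with a mean at or above the 40th percentile (signal 59.4) were kept, 13648 in all, with all 42 members. The genotype contrast was tested two-sided in limma 3.58.1 (R 4.3.3), using lmFit and a trended eBayes, and p-values were adjusted by Benjamini-Hochberg across every kept probe set. Exact permutation tests used scipy 1.17.1. The fit was tested on simulated data. Genes given in full were the 6 highest and 6 lowest log2 changes and the 3 families of widest span. The remaining members are given by log2 change, some with signals. Members and lists were chosen with earlier results of these data known. Alternatives varied the filter, the normalization (cyclic loess was added after seeing the data), the pseudocount (32), the variance prior and moderation, blocked on replicate number, or dropped 1 sample at a time.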

Additional observations from a re-analysis of the deposited data

Results flagged for a closer look

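Outside the measured genes, the control probe set for 25S ribosomal RNA, left out of the fit, was higher in nlp7-1 roots, with signals of 6180 and 6248 against 5005 and 5318 in wild-type roots. The log2 difference was 0.27, with a pooled SD of 0.04 between replicates and no overlap (exact permutation p = 0.333, the smallest that 2 against 2 allows). Its relation to the ribosomal protein genes was not tested. The other controls among the 64 were not read, and 23.2% of all kept probe sets also lay above without overlap.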

How the results depend on the processing

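The median log2 change of the 42 genes was 0.16 to 0.17 under quantile normalization, median centring, a pseudocount of 32 and cyclic loess, with 40 genes above 0 in each and 35 to 37 without overlap. With a sample left out it ran from 0.14 to 0.18, with 38 to 41 genes above 0, for the large subunit from 0.14 to 0.19 and for the small subunit from 0.16 to 0.18. RPL14B (-0.020 to 0.19), RPL26A (-0.013 to 0.14), RPL31A (-0.0080 to 0.12) and RPL6A (-0.076 to 0.017) changed sign with a sample left out, and the other 38 genes kept theirs in every setting tried. Calls in limma among the 42 genes stayed at 0 except with the replicate block, where 5 passed (RPL10aC, RPL7aA, RPL7D, RPS12A, RPS7B), and without wild type replicate 1, where RPL10aC did (0 to 1 with a sample left out). Over all probe sets the calls were 310, against 116 without a trend in the variance prior, 0 unmoderated, 1290 with the replicate block and 14 to 770 with a sample left out. Among the 27 other translation genes kept, nuclear and plastid together, they were 4 with the block (1 higher and 3 lower in nlp7-1) and 0 to 3 with a sample left out, against 0. Nothing in the labels says that a replicate number marks a shared batch; replicate differences of the genotypes correlated at r = 0.44 across 13648 probe sets, and 2 pairs cannot settle it. The cause of these changes was not tested. Averaging probe sets of a gene changed nothing, as each gene had 1.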

Other observations

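Probe sets shared by paralogues hold 7 of the listed genes that have none of their own, and each reads the sum of a family pair. Of the 5 such probe sets 4 had a log2 change above 0, with a median of 0.13, and in 1 both nlp7-1 samples lay above both wild-type samples, a share near the 23.2% of all kept probe sets. RPS20 had signals of 3869 and 4096 in nlp7-1 roots, against 3672 and 3419.6 in wild-type roots (log2 change 0.17 ± 0.09, SE). RPS3 had 4078 and 4522 in nlp7-1 roots, against 4298 and 2919.5 in wild-type roots, where the wild-type samples lay far apart (0.28 ± 0.18). RPL32 and RPS16 had 0.08 ± 0.09 and 0.13 ± 0.10. The probe set of RPL6B and RPL6C had 3918 and 2967 in nlp7-1 roots, against 3621 and 3369 in wild-type roots (-0.03 ± 0.14), a log2 change as close to 0 as that of RPL6A. In limma 0 of the 5 passed, and 0 had an unadjusted p under 0.05. Calls by other tests were not made for them.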
